A study of Mus musculus with 9 samples.

Results

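The matrix metalloproteinases (MMP), the ADAMTS proteases and the tissue inhibitors of metalloproteinases (TIMP) were followed in primary mouse myoblasts that had or lacked the mitochondrial protein Uqcrfs1, with and without the drug oxybutynin. Members were taken by name: every protein-coding gene whose symbol is Mmp and a number with or without a letter, Adamts and a number, or Timp1 to Timp4. This gave 45 of the 55536 genes in the table, 22 MMP, 19 ADAMTS and 4 TIMP genes. Mmp1a has a fitting name and was left out because the annotation lists it as a polymorphic pseudogene. The naming rule reads no expression value, though the families were picked with earlier results of these data known.

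MMPs and ADAMTS proteases are zinc enzymes, secreted or anchored at the cell surface, that cut proteins of the extracellular matrix. They are made as inactive precursors and are switched on by removal of a propeptide, often by furin-like convertases or by other proteases such as plasmin, and the TIMPs block the active site. In skeletal muscle these enzymes are known for remodelling the basement membrane and interstitial matrix around myoblasts as the cells migrate and fuse, and for trimming the propeptides of procollagen.

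Myoblasts are the dividing precursors of muscle fibres, and all 9 libraries came from cells with floxed Uqcrfs1, which encodes the Rieske iron-sulphur protein of respiratory complex III. The 3 floxed vehicle libraries (genotype uqcrfs1 +/+) came from cells given an adenovirus for green fluorescent protein and the solvent DMSO, the 3 knockout vehicle libraries (uqcrfs1 -/-) from cells given an adenovirus for Cre recombinase and DMSO, and the 3 knockout oxybutynin libraries from Cre-treated cells given oxybutynin at 7.5 µM, a drug that blocks muscarinic receptors. Cells were seeded 72 h after infection, treated from 24 h after seeding, and kept for 5 days in medium with horse serum. Genotype and the gene carried by the virus cannot be told apart in this design, no floxed cells received oxybutynin, and strain, age and the source of each culture are not given in the labels.

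Library totals were 19604971 to 26226949 counts. Uqcrfs1 stood at 76.5 to 83.6 CPM (counts scaled to library size with TMM factors) in the floxed libraries, 2.13 to 2.83 with knockout and vehicle, and 2.07 to 2.90 with knockout and oxybutynin. Of 8 myoblast markers listed, Pax7, Myod1 and Des averaged 321, 1118 and 694 CPM in floxed vehicle. Knockout vehicle replicate 2 stood apart from its group, with 2.71% of counts from the mitochondrial genome against 2.04% and 1.95% in the other two. The labels do not say that replicates were separate cultures, so p-values here measure only how far these samples vary, which may be technical. Fewer cells of a type and less RNA per cell cannot be told apart in such bulk samples.

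Transcripts of Timp2 and Timp1 were more abundant per length of exon than those of any protease. In floxed vehicle Timp2, which both blocks MMPs and forms the complex that lets Mmp14 activate Mmp2, averaged 147 CPM per kb, and Timp1, a secreted inhibitor of most MMPs, averaged 130 CPM per kb. Adamts14, a procollagen N-propeptidase, came next at 71.2 CPM per kb, and the membrane-anchored Mmp14 and Mmp15 followed at 21.8 and 18.3 CPM per kb. Adamts4, a protease of aggrecan and versican, stood at 17.4 CPM per kb, and the remaining members were below 8 CPM per kb. Of the 45 members, 26 passed the filter on low counts (11 MMP, 12 ADAMTS and 3 TIMP), and 23 of these had a mean of at least 1 CPM over the 9 libraries.

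The sum of each family came mostly from 1 or 2 genes. Mmp14 held 38.5% of the summed CPM per kb of the MMP family in floxed vehicle, with Mmp15 at 32.4% and Mmp11 at 12.7%. Adamts14 held 62.8% of the ADAMTS sum, and Timp2 and Timp1 held 52.9% and 46.9% of the TIMP sum. Timp3, the inhibitor that binds to the matrix and also blocks ADAMTS enzymes, made up only 0.176% of the TIMP sum.

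The other 19 members were at or near 0 and were not tested. Mmp7, Mmp20, Adamts18 and Adamts19 had 0 counts in all 9 libraries, where 3 counts correspond to 0.118 to 0.153 CPM. The highest count of any untested member in a library was 10, for Adamts17, and Timp4 had 12 counts in all. Of these, 8 lie in a run of 9 MMP genes on chromosome 9 (GRCm38, chr9:7272514-7699585), which holds the collagenase Mmp13, the stromelysins Mmp3 and Mmp10, the neutrophil collagenase Mmp8, the enamel protease Mmp20 and the macrophage elastase Mmp12. Only Mmp12 passed the filter there, with 113 counts in all 9 libraries. Mmp13 had 25 counts, Mmp10 had 14, and Mmp3 had 3.

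Of the 45 members, 31 matched the RefSeq promoter table (GRCm38.p6), and these had 34 windows of 250 bases before and 50 bases after a gene start. Of the 26 tested members 16 matched, and Mmp19, Mmp2 and Adamts6 were among those without a window. The AP-1 letters TGANTCA occurred, on either strand, in 7 of the 9 genes of the run and in 0 of the 15 other tested members with a window, against 7.81% of all 32851 promoters. The TATA letters TATAAA occurred in 8 of the 9 genes and in 1 of the 15 (Adamts1), against 13.6% of all promoters. The GC box letters GGGCGG showed the reverse, in 0 of the 9 genes and 14 of the 15, against 35.7% of all promoters. The shares of all promoters count windows and not genes. By window the run had the AP-1, TATA and GC box letters in 7, 8 and 0 of 11, and the 15 other tested members in 0, 1 and 14 of 16. The AP-1 and TATA letters of Mmp12 lay only in the second of its 2 windows. The 7 other members with a window, also untested for low counts but outside the run, had the AP-1 letters in 0, the TATA letters in 1 and the GC box letters in 4. Matches were searched on both strands, and no matches overlap in the sequences printed here.

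The letters of the run and of tested members outside it are shown in 7 windows. Each is given as the 110 bases before the RefSeq gene start and lies outside the gene's GENCODE limits. Capitals mark the AP-1, TATA and GC box letters on either strand, and on either strand the letters ACGTG, known from hypoxia response elements, which occurred in 8 of the 34 member windows and 19.6% of all promoters. The first 3 belong to the chromosome 9 run (chr9:7445712-7445821, chr9:7502232-7502341 and chr9:7272404-7272513, all on the plus strand).
Mmp3: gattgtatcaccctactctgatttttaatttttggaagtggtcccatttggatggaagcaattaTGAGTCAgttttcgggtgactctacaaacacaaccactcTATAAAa
Mmp10: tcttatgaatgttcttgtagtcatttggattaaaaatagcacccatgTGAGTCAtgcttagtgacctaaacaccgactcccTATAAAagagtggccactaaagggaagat
Mmp13: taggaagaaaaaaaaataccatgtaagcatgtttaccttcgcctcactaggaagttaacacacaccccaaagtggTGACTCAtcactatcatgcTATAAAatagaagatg
The other 4 belong to tested members outside the run, Mmp14 (chr14:54431488-54431597, plus strand), Timp1 (chrX:20870056-20870165, plus), Adamts1 (chr16:85803114-85803223, minus) and Adamts3 (chr5:89883335-89883444, minus). Adamts3 was scarce, with a mean of 0.499 CPM over the 9 libraries.
Mmp14: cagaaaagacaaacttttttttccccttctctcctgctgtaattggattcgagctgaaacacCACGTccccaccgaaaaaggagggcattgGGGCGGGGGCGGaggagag
Timp1: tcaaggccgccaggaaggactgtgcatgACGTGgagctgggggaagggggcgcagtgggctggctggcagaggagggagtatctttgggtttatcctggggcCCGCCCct
Adamts1: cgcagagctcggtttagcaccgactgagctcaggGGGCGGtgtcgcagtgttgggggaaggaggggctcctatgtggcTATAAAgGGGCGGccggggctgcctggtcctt
Adamts3: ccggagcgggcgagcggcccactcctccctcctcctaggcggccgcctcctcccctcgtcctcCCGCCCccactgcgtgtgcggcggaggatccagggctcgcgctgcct

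The first base of the AP-1 letters lay 46 bases before the start in Mmp3, 63 in Mmp10 and 35 in Mmp13. The TATA letters followed at 7, 29 and 16 bases before the start. A match is a string of letters and not a measured site, and binding was not measured. Among the transcription factors whose class binds such letters, Fosl1, Jun and Fosl2 were well expressed in floxed vehicle at 184, 165 and 67.5 CPM.

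**Figure D1:**
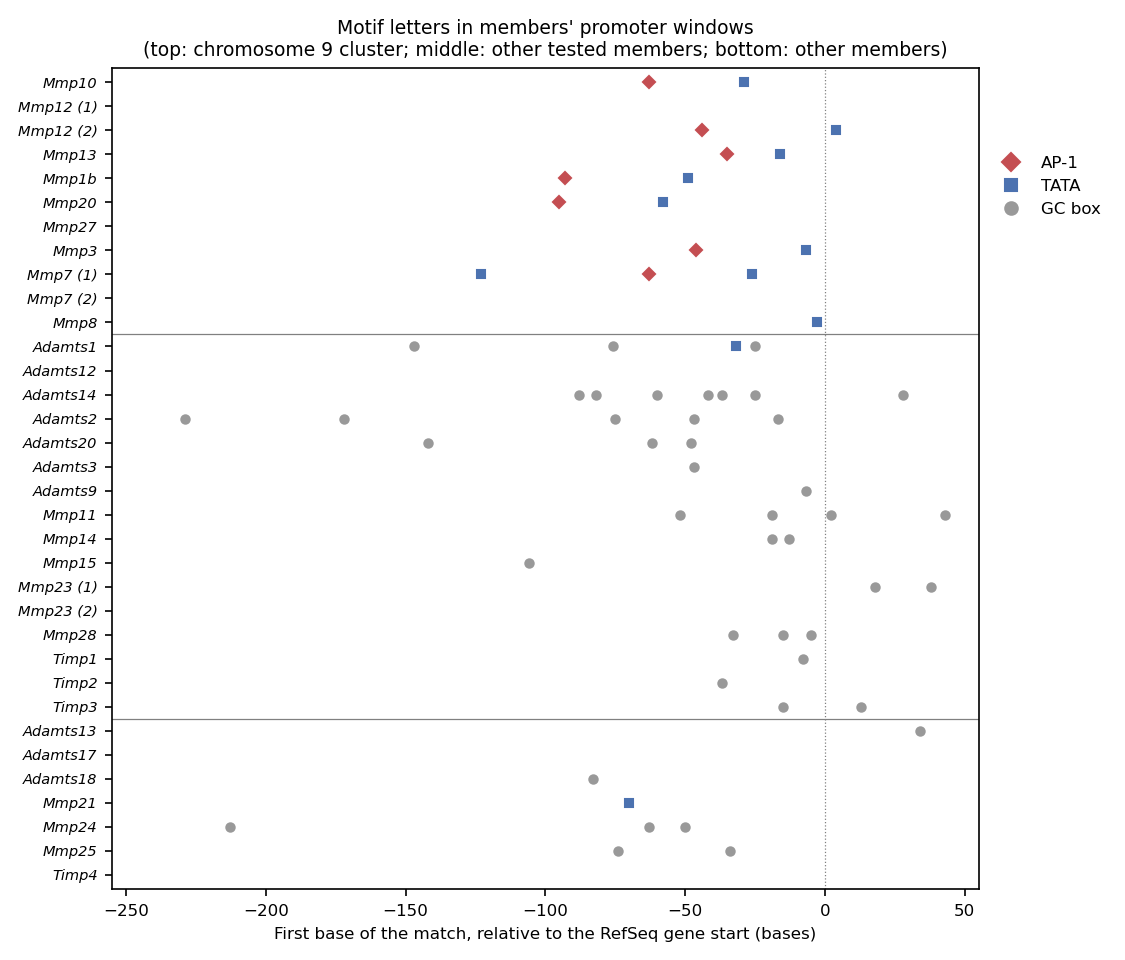
Position of the AP-1, TATA and GC box letters in the 34 promoter windows of the members, in bases from the RefSeq gene start (dotted line), 1 row per window with a number where a gene has 2. AP-1 marks appear only in the top block (7 of 9 genes of the chromosome 9 run), and GC box marks appear in 14 of 15 genes of the middle block and in none of the top block.

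Members changed in both directions between knockout vehicle and floxed vehicle, as did genes at large. In knockout vehicle against floxed vehicle, 11 members rose and 7 fell at an adjusted p under 0.05 (edgeR quasi-likelihood test, Benjamini-Hochberg over all 15720 genes tested), and 8 were not called. In the same comparison 29.9% of all tested genes were called higher and 33.4% lower, so the change in transcript levels was broad. Among 11 tested MMP genes 6 rose and 2 fell, among 12 tested ADAMTS genes 2 rose and 5 fell, and the 3 tested TIMP genes rose. With so many genes called, these counts are not read as a trait of a family. These counts include the scarce Mmp12 and Adamts3, which passed the filter through the libraries where they were higher. Without knockout vehicle replicate 2, the library that stood apart, 14 members were higher and 7 lower, where 33.5% and 34.7% of all genes tested in that fit were called. The median log2 fold change was 0.33 over the 26 tested members and -0.01 over all tested genes.

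Part of the variation between libraries followed base composition: over 12976 protein-coding genes the log2 fold change had a Spearman correlation of 0.54 with GC content, and over the 26 members it was 0.05. Each library's trend of level on GC content and exon length was therefore removed in an alternative fit, called the adjusted fit here. In it the members' correlation with GC content was -0.30, so for the members it is an alternative and not a correction. There 13 members were higher and 8 lower, with 28.3% of all tested genes higher and 30.8% lower. For the members in this comparison, the adjusted value is given where it gained or lost a call or differed from the log2 fold change by more than 1.5 times.

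**Figure D2:**
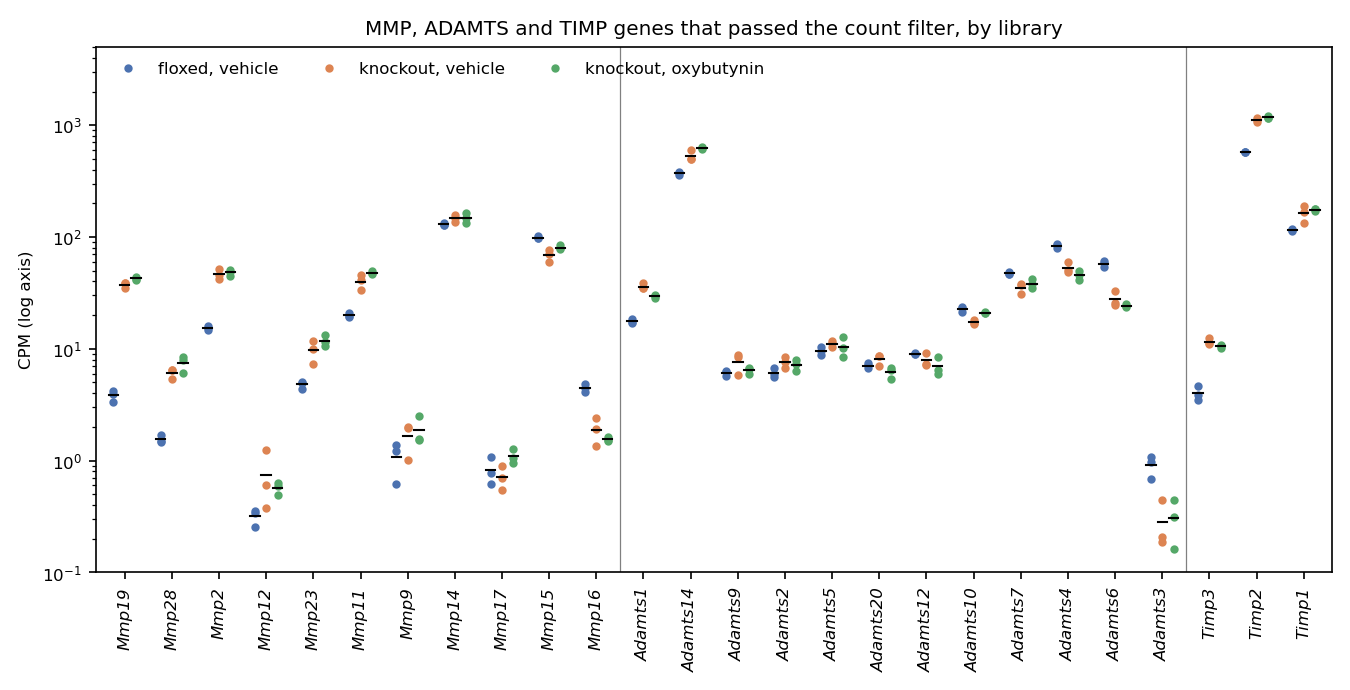
CPM on a log axis of the 26 members that passed the filter in each of the 9 libraries (points), with group means as bars, ordered within each family by the knockout change. Mmp19 lies between 3.37 and 4.17 CPM in floxed vehicle and between 35.0 and 44.3 CPM in the 6 knockout libraries, and Timp2 is the highest member in every library.

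Mmp19 (chr10:128790910-128800824), a secreted MMP that cuts basement membrane proteins, changed more than any other tested member. It had 3.37, 4.17 and 3.96 CPM in the floxed vehicle libraries and 35.0, 38.5 and 39.1 CPM in the knockout vehicle libraries. The groups were far apart, and the 9.75-fold difference was a log2 fold change of 3.29 ± 0.11 (SE, adjusted p = 1.15e-12). Its exons share 789 bases with Tmem198b on the other strand, which had 17.9 CPM in floxed vehicle and 16.3 CPM in knockout vehicle. How strand was treated in counting is not recorded, so reads in shared exons cannot be told apart for this and the other overlapping genes named below.

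Mmp2 (chr8:92827291-92853420), gelatinase A, which cuts type IV collagen and denatured collagens, had 14.8, 16.1 and 15.5 CPM in floxed vehicle and 45.5, 42.1 and 51.9 CPM in knockout vehicle. It rose 3.01-fold with no overlap between the groups (log2 1.59 ± 0.10 SE, adjusted p = 6.57e-10). Mmp9, the other gelatinase, had 1.23, 1.37 and 0.622 CPM against 2.00, 1.00 and 1.94 CPM. Its values overlapped, and the log2 fold change of 0.62 ± 0.34 was not called (adjusted p = 0.12), although it was without knockout vehicle replicate 2 (0.88, adjusted p = 0.0151). The adjusted fit gave 0.16 for Mmp9, again not called.

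Mmp28 (chr11:83440768-83463071), epilysin, a secreted MMP with a furin site, had 1.48, 1.503 and 1.69 CPM in floxed vehicle and 5.36, 6.44 and 6.44 CPM in knockout vehicle. It rose 3.89-fold (log2 1.96 ± 0.18 SE, adjusted p = 6.62e-08). Mmp11, stromelysin 3, which furin activates inside the cell, had 19.3, 19.8 and 20.8 CPM against 41.1, 33.4 and 45.5 CPM. The groups did not overlap, and Mmp11 rose 2.00-fold (log2 1.00 ± 0.11 SE, 0.54 in the adjusted fit). It shares 155 exon bases with Chchd10 on the other strand, which averaged 7.30 and 43.3 CPM, and Mmp28 shares 466 with 1700020L24Rik, which averaged under 0.1 CPM.

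Mmp23, a type II membrane MMP with no haemopexin domain, had 4.39, 5.02 and 4.98 CPM in floxed vehicle against 10.1, 7.32 and 11.7 CPM in knockout vehicle. Every knockout vehicle library was above every floxed library, and it rose 2.02-fold (log2 1.01 ± 0.17 SE, 0.53 in the adjusted fit). Mmp12 was scarce, with 5, 8 and 8 counts in floxed vehicle and 27, 9 and 15 counts in knockout vehicle. It passed the filter through knockout libraries only, and did not pass where only the groups compared were fitted. Its log2 fold change of 1.18 ± 0.45 was called (adjusted p = 0.031). The call was lost in 4 of 6 fits that left out 1 library, with adjusted p up to 0.23 without knockout vehicle replicate 1. The adjusted fit gave 2.10.

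Among the membrane MMPs tested other than Mmp23, Mmp15 and Mmp16 fell, and Mmp14 and Mmp17 were not called. Mmp15, a transmembrane MMP, had 102, 97.0 and 98.0 CPM in floxed vehicle and 69.9, 60.0 and 76.0 CPM in knockout vehicle, a fall by 0.53 on the log2 scale (SE 0.09, adjusted p = 5.84e-05), and it fell by 1.00 in the adjusted fit. Mmp16, a close relative, had 4.14, 4.42 and 4.85 CPM against 1.35, 2.43 and 1.90 CPM. The groups did not overlap, and it was 2.35-fold lower (log2 -1.23 ± 0.21 SE, adjusted p = 5.54e-05, -0.48 in the adjusted fit). Mmp14, the main activator of Mmp2 at the cell surface, had 133, 127 and 128 CPM against 156, 137 and 147 CPM, with no overlap. Its log2 fold change of 0.18 ± 0.08 was not called (adjusted p = 0.075), other scalings gave 0.19 to 0.21 with a call, and the adjusted fit gave -0.18, called lower. Mmp17, held at the membrane by a lipid anchor, averaged 0.818 and 0.711 CPM and was not called (log2 -0.21, -0.59 in the adjusted fit).

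In the ADAMTS family the changes followed no single subgroup. Among the procollagen N-propeptidases, Adamts14 (chr10:61197112-61273438) had 359, 374 and 378 CPM in floxed vehicle and 499, 496 and 599 CPM in knockout vehicle. It rose 1.44-fold (log2 0.52 ± 0.08 SE, adjusted p = 3.41e-05), but in the adjusted fit the value was 0.05 and was not called (adjusted p = 0.54). Adamts3 had 0.971, 0.687 and 1.07 CPM against 0.186, 0.209 and 0.445 CPM. It was 3.14-fold lower with no overlap (log2 -1.65 ± 0.43 SE, adjusted p = 0.0028), on 16 to 24 counts a library in floxed vehicle and 4 to 11 in knockout vehicle. Adamts3 passed the filter through its floxed libraries, the group where it was higher. Adamts2, the third propeptidase, averaged 6.09 and 7.61 CPM and was not called (log2 0.32 ± 0.14, adjusted p = 0.060), though it was in 5 of 13 alternative fits. The adjusted fit gave 0.08 for it.

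The proteases of aggrecan and versican were split. Adamts1 had 18.3, 17.2 and 17.2 CPM in floxed vehicle and 34.8, 38.5 and 34.7 CPM in knockout vehicle, and it rose 2.05-fold (log2 1.04 ± 0.09 SE, adjusted p = 3.28e-08). Adamts4 had 84.4, 79.4 and 87.1 CPM against 59.9, 50.6 and 48.6 CPM and was 1.58-fold lower (log2 -0.66 ± 0.10 SE, adjusted p = 1.29e-05, -1.08 in the adjusted fit). Neither gene's groups overlapped. Adamts5 lies next to Adamts1 on chromosome 16 (chr16:85793827-85901828 for the pair) and averaged 9.64 and 11.1 CPM. Its log2 fold change of 0.21 ± 0.14 was not called (adjusted p = 0.20), while the adjusted fit gave 0.87 with a call. Adamts9 (log2 0.34) and Adamts20 (log2 0.20) were also called only in the adjusted fit among these 2 fits, at 0.49 and 0.32.

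Adamts6 and Adamts10, both linked to fibrillin microfibrils, were lower in the knockout. Adamts6 had 58.3, 60.4 and 54.3 CPM in floxed vehicle and 25.6, 33.2 and 24.4 CPM in knockout vehicle. It was 2.08-fold lower with no overlap (log2 -1.06 ± 0.11 SE, adjusted p = 1.89e-07, -0.42 in the adjusted fit). Adamts10 had 23.7, 21.2 and 23.3 CPM against 16.9, 16.7 and 18.1 CPM and was 1.32-fold lower (log2 -0.40 ± 0.09 SE, -0.76 in the adjusted fit). Of the pair that cuts cartilage oligomeric matrix protein, Adamts7 had 46.8, 48.6 and 46.9 CPM against 37.0, 30.6 and 38.1 CPM and was 1.35-fold lower (log2 -0.43 ± 0.10 SE, -0.86 in the adjusted fit). Adamts12 averaged 9.01 and 7.89 CPM with overlapping values and was not called (log2 -0.19, 0.12 in the adjusted fit). Adamts7 shares 122 exon bases with Tbc1d2b on the other strand, and Adamts9 shares 1381 with A730049H05Rik.

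The inhibitors rose. Timp2 (chr11:118301069-118355740) had 579, 571 and 570.3 CPM in floxed vehicle and 1072, 1149 and 1113 CPM in knockout vehicle. The groups were widely separated, and it rose 1.94-fold (log2 0.95 ± 0.07 SE, adjusted p = 5.02e-09, 0.57 in the adjusted fit). Timp3 (chr10:86300372-86349506), which lies within Syn3 on the other strand and shares 1733 exon bases with it, had 3.88, 4.64 and 3.47 CPM against 11.2, 12.5 and 11.0 CPM. It rose 2.89-fold (log2 1.53 ± 0.14 SE, adjusted p = 3.06e-08), and Syn3 averaged 0.122 and 0.362 CPM. Timp1 had 112, 118 and 116 CPM against 189, 134 and 167 CPM. It rose 1.41-fold (log2 0.50 ± 0.10 SE, adjusted p = 0.000306, 0.25 in the adjusted fit), and its lowest knockout vehicle value was in replicate 2.

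**Figure D3:**
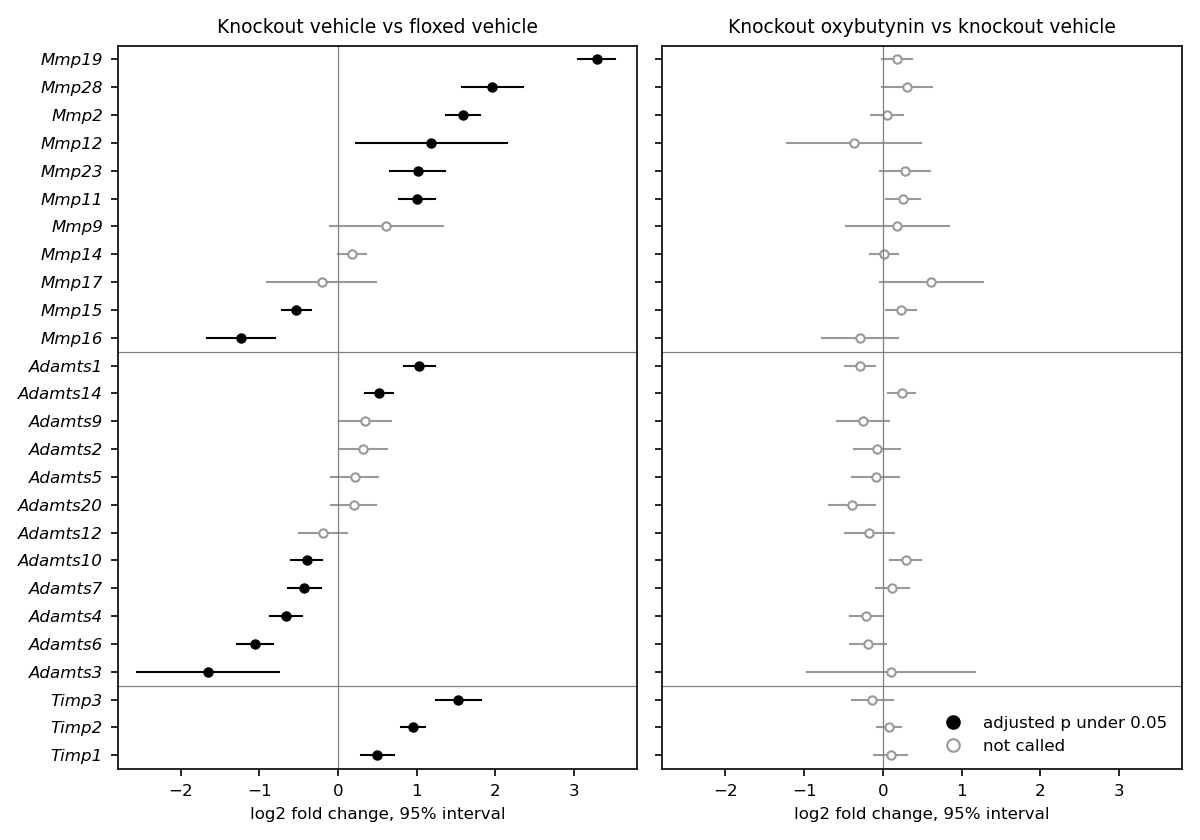
Log2 fold changes of the 26 tested members with 95% intervals, knockout vehicle against floxed vehicle (left) and knockout oxybutynin against knockout vehicle (right), where filled points have an adjusted p under 0.05. On the left 11 filled points lie above 0 and 7 below, and on the right none is filled.

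Summed over each family, the level per kb was higher in knockout vehicle for all 3 families. The MMP sum was 56.5 ± 0.312 CPM per kb (SD, n = 3) in floxed vehicle and 82.8 ± 7.13 in knockout vehicle. The ADAMTS sum was 113 ± 1.72 and 135 ± 10.3 CPM per kb, and the TIMP sum 278 ± 2.38 and 471 ± 21.5 CPM per kb. The libraries of the 2 groups did not overlap in any of these sums. The higher ADAMTS sum came from Adamts14, the gene whose call was lost in the adjusted fit: without it the sum was lower in the knockout, at 42.2 ± 0.665 CPM per kb in floxed vehicle and 33.2 ± 1.12 in knockout vehicle. The make-up shifted too, with Mmp14 at 29.7% of the MMP sum in knockout vehicle, Mmp11 at 17.4% and Mmp2 at 16.6%. Adamts14 held 75.5% of the ADAMTS sum in knockout vehicle and Timp2 held 60.6% of the TIMP sum. These sums are descriptions and were not tested.

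**Figure D4:**
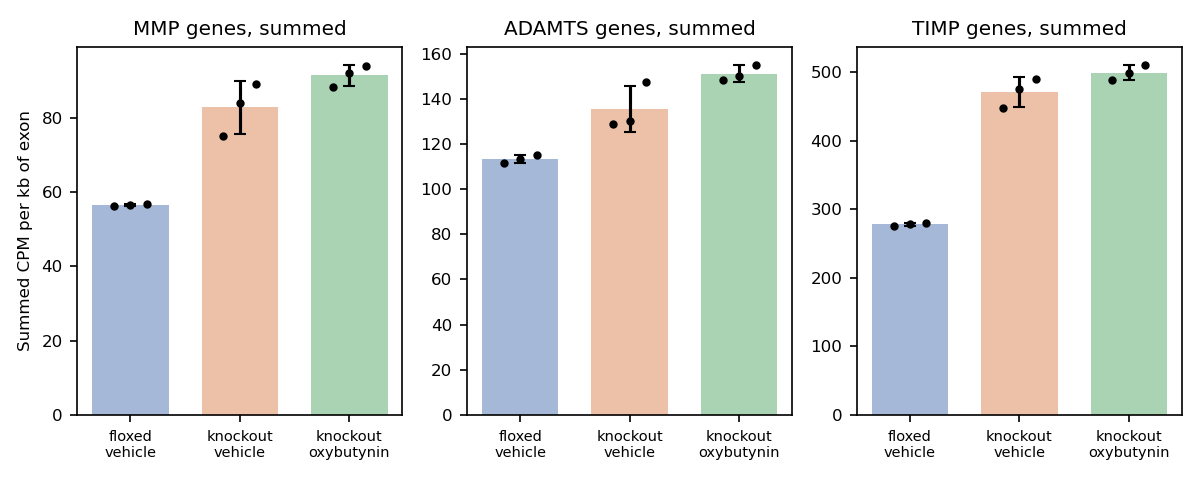
Summed CPM per kb of exon of the MMP, ADAMTS and TIMP genes, with bars for group means, error bars for SD (n = 3) and points for libraries. The TIMP sum averages 278, 471 and 499.6 in the 3 groups from left to right.

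Genes that switch these proteases on or surround them were read from lists chosen by function. Of 62 list genes called in knockout vehicle against floxed vehicle, 51 were called in the same direction in the adjusted fit, 10 were not called there and 1, the ETS factor Etv4, turned from 0.28 to -0.22, while 9 further genes were called only there. Values are from the unadjusted fit unless stated. In the plasminogen system, whose protease plasmin activates several MMP precursors, 5 of 6 tested genes rose and 1 fell. Serpine2, a protease nexin that inhibits plasminogen activators, rose from 221 to 374 CPM (log2 0.76), and Plaur, the urokinase receptor, from 35.8 to 58.9 CPM (0.72, 0.37 in the adjusted fit). Plau, urokinase itself, rose from 214 to 304 CPM (0.51), and Serpinb2 fell from 2.18 to 0.759 CPM (-1.52), which the adjusted fit did not call (-0.60, adjusted p = 0.0586). Activators and inhibitors of plasmin formation were both among the genes that rose. The median log2 fold change of this list was 0.74.

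Of 7 proprotein convertases tested, 3 rose and 2 fell. Furin, which removes the propeptide of Mmp11, the membrane-type MMPs and many ADAMTS proteases, fell from 203 to 164 CPM (log2 -0.30, adjusted p = 0.0146, -0.60 in the adjusted fit). Pcsk7 rose from 23.9 to 29.4 CPM (log2 0.30), but the adjusted fit gave -0.11 and did not call it (adjusted p = 0.24). Among other inhibitors and inducers 3 of 5 rose and none fell: Reck, a membrane-anchored MMP inhibitor, from 6.65 to 9.85 CPM, Bsg, the MMP inducer basigin, from 178 to 284 CPM, and Spock2 from 4.46 to 8.37 CPM. In the adjusted fit Bsg stood at 0.23 against 0.67 and Spock2 at 0.51 against 0.90.

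The relatives of the members were split. Of 10 tested ADAM proteases, which shed proteins from the cell surface, 2 rose and 5 fell, with Adam10 down from 140 to 65.2 CPM (log2 -1.10), Adam17 from 73.6 to 49.2 CPM and Adam12 from 4.33 to 1.52 CPM. Adam15 rose from 37.8 to 61.0 CPM. The adjusted fit kept these calls at -0.46 for Adam10, -0.20 for Adam17, -1.48 for Adam12 and 0.26 for Adam15. Of 5 ADAMTS-like proteins, which lack the protease domain, 4 rose and 1 fell, including Adamtsl5 from 4.41 to 16.8 CPM and Adamtsl2 from 0.893 to 0.0704 CPM. The cathepsins and cystatins leaned higher, with 8 of 10 called higher and 0 lower and a median log2 fold change of 0.84. Ctsb, a lysosomal cysteine protease, rose from 199 to 467 CPM, Ctsl from 167 to 320 CPM and Ctsz from 44.2 to 109 CPM.

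Substrates moved in both directions. Of 8 tested ADAMTS substrates, 4 rose and 2 fell: the proteoglycan versican (Vcan) fell from 279 to 118 CPM and thrombospondin 1 (Thbs1) from 1148 to 532 CPM, while biglycan (Bgn) rose from 48.9 to 160 CPM and fibronectin (Fn1) from 2137 to 3325 CPM. Vcan moved from -1.25 to -0.49 in the adjusted fit. Of 13 collagens and laminins, 6 rose and 4 fell. Col1a1, cut by the procollagen propeptidases, rose from 21.2 to 54.4 CPM, and the basement membrane collagen Col4a1 fell from 478 to 330 CPM. In the tolloid group, which trims the other end of procollagen, 1 of 4 rose (Pcolce, an enhancer of that step) and 2 fell (Pcolce2 and Tll1, neither called in the adjusted fit). Bmp1 averaged 97.8 and 93.2 CPM and was not called (log2 -0.07), while the adjusted fit called it lower (-0.38). Of 13 AP-1 and ETS factors, 6 rose and 3 fell, with Atf3 up from 3.79 to 19.7 CPM, Fosl2 up from 67.5 to 127 CPM, Etv1 down from 76.5 to 27.2 CPM and Jun down from 165 to 118 CPM. In the adjusted fit Etv1 stood at -0.35 against -1.49, Jun at -0.92 against -0.48 and Col4a1 at -0.91 against -0.54.

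Summed markers of fibroblasts and of leukocytes were higher in the knockout, at low levels. The 9 fibroblast markers summed to 8.98 to 10.4, 26.9 to 29.4 and 28.2 to 30.3 CPM in floxed vehicle and the vehicle and oxybutynin groups of the knockout. Cd34, also a marker of quiescent muscle stem cells, made up most of this rise (3.58, 17.6 and 18.9 CPM). Of 5 fibroblast markers tested, 4 were called higher and 0 lower in knockout vehicle. Ly6a averaged 2.47, 5.07 and 5.12 CPM, Thy1 0.451, 1.74 and 1.61 CPM and Col15a1 0.504, 0.918 and 0.999 CPM. Lum was at 0 in every library and Dcn averaged 0.106 to 0.236 CPM, while Pdgfra averaged 2.33, 2.80 and 2.23 CPM. The 9 leukocyte markers summed to 11.1 to 11.9, 16.8 to 19.6 and 19.1 to 21.3 CPM in the 3 groups, carried by Cd68 and Lyz2, with Ptprc under 0.2 CPM in each. Of 6 leukocyte markers tested, 3 were called higher and 1 lower in knockout vehicle. Any part of such cells in the rise of Timp3, Mmp2, Mmp19 or Mmp12 was not tested. The 6 endothelium markers summed to 2.22 to 3.39, 2.68 to 3.45 and 2.69 to 3.42 CPM, with 0 of 3 tested called higher or lower. The 5 smooth muscle and pericyte markers, mostly Notch3, summed to 212 to 218, 213 to 253 and 232 to 253 CPM. Of 3 of these tested, 0 were called higher and 1 lower in knockout vehicle. The 8 myoblast markers summed to 3408 to 3559, 3600 to 4396 and 4253 to 4500 CPM in the 3 groups. Of the 8, 4 were called higher and 2 lower in knockout vehicle. Pax7, Myod1 and Des averaged 385, 1302 and 936 CPM in knockout vehicle. Myf5 averaged 58.5, 44.8 and 36.0 CPM in the 3 groups and Cdh15 190, 103 and 112 CPM. Of 8 genes of muscle differentiation 6 were lower and 2 higher in knockout vehicle. Myog fell from 199.8 to 136 CPM and Myh3 from 701 to 214 CPM, while Acta1 rose from 711 to 1238 CPM and Ckm from 10.9 to 26.9 CPM. The 8 genes summed to 1850 to 2141, 1550 to 2014 and 1590 to 1726 CPM in the 3 groups. Any part of muscle differentiation in the results was not tested either.

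Oxybutynin did not shift the members past the test. In knockout oxybutynin against knockout vehicle, 0 of 26 tested members were called in either direction by edgeR, where only 1 gene in each direction was called among all 15720 (0.00636% higher and 0.00636% lower). At an unadjusted p under 0.05, 4 members were higher and 3 lower, against 10.8% and 15.2% of all tested genes. In 7 members every oxybutynin library was above every knockout vehicle library and in 3 every one was below, against 10.5% and 11.6% of all tested genes. The median log2 fold change was 0.06 over the members and -0.003 over all tested genes. DESeq2 called 1134 of the 15720 genes in this comparison, of which 1 was a member, Adamts1. It gave no adjusted p for Mmp9, Mmp12, Mmp16, Mmp17, Mmp28, Adamts2, Adamts3, Adamts9, Adamts12 and Adamts20, so it could not call them.

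Adamts1 had 34.8, 38.5 and 34.7 CPM in knockout vehicle and 30.4, 29.6 and 28.3 CPM in knockout oxybutynin. The groups did not overlap, with a log2 fold change of -0.29 ± 0.09 (SE, 95% interval -0.48 to -0.10, adjusted p = 0.0898 by edgeR and 0.0315 by DESeq2). Adamts20, at 7.03, 8.66 and 8.66 CPM against 6.73, 6.45 and 5.35 CPM, had a log2 fold change of -0.39 ± 0.14 and was not called (adjusted p = 0.11). On the higher side, Adamts14 had 499, 496 and 599 CPM against 644, 618 and 620.5 CPM, a log2 fold change of 0.24 ± 0.08 (adjusted p = 0.11). Adamts10 had 16.9, 16.7 and 18.1 CPM against 20.7, 21.5 and 20.9 CPM, a log2 fold change of 0.29 ± 0.09 (adjusted p = 0.0990). None of these edgeR values passed the threshold, though the groups were separate in each.

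Intervals around the oxybutynin difference varied in width among members that had risen with the knockout. Mmp2 had 48.9, 44.7 and 50.9 CPM with oxybutynin, a log2 difference of 0.05 (95% interval -0.15 to 0.25) from knockout vehicle. Timp2 had 1154, 1149.7 and 1209.9 CPM (0.08, -0.08 to 0.23), and Timp3 had 10.9, 10.7 and 10.2 CPM (-0.13, -0.39 to 0.12). Mmp19 had 42.3, 41.3 and 44.3 CPM (0.18, -0.01 to 0.37). A change of 1.5-fold lies outside each of these 4 intervals, but not outside those of Mmp28 (8.45, 7.95 and 6.11 CPM, 0.30, -0.01 to 0.62) and Mmp23 (0.28, -0.04 to 0.60), which reach 1.54-fold and 1.52-fold. For the scarce Mmp12, Adamts3 and Mmp9 the intervals reached from -1.22 to 0.48, -0.97 to 1.17 and -0.47 to 0.84.

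The oxybutynin calls changed when 1 library was left out. Without knockout vehicle replicate 3, 5 members were called higher (Mmp11, Mmp15, Mmp23, Adamts10 and Adamts14, log2 0.31 to 0.44) and 2 lower (Adamts1 at -0.32 and Adamts9 at -0.42). In that fit 11.6% of all tested genes were called higher and 14.4% lower. Across the 26 members the oxybutynin log2 fold change had a Spearman correlation of 0.80 with GC content, against 0.69 over 12976 protein-coding genes, given as a description since the genes share the same libraries. After removal of the GC and length trend the members' correlation was 0.33. In that fit Mmp11, Mmp15, Mmp23, Adamts10 and Adamts14 had log2 fold changes of 0.08, 0.05, 0.07, 0.15 and 0.05.

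**Figure D5:**
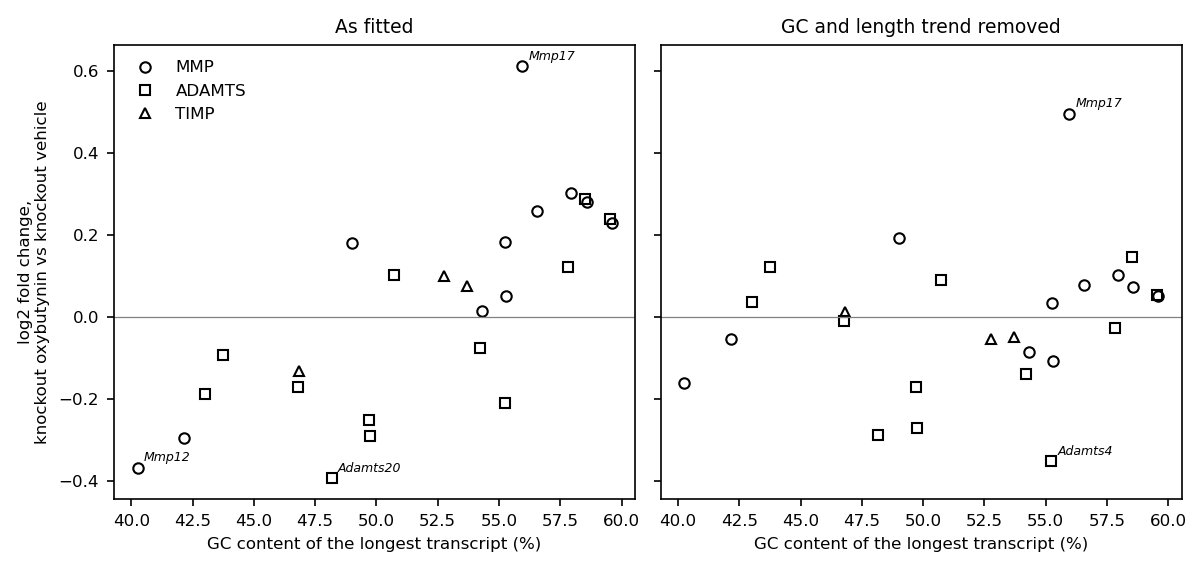
Log2 fold change of the 26 tested members, knockout oxybutynin against knockout vehicle, against the GC content of the longest transcript in percent, as fitted (left) and with each library's GC and length trend removed (right). On the left members below 45% GC lie below 0 and those above 57% lie above 0 (Spearman correlation 0.80), and on the right the correlation is 0.33.

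Set against floxed vehicle, the knockout cells with oxybutynin also had 11 members higher and 7 lower, where 35.1% of all tested genes were higher and 36.9% lower. This comparison shares the floxed libraries with the first, so values are given side by side. The log2 fold changes in knockout vehicle and knockout oxybutynin were 3.29 and 3.47 for Mmp19, 1.96 and 2.26 for Mmp28, 1.59 and 1.64 for Mmp2, 1.53 and 1.40 for Timp3 and 0.95 and 1.03 for Timp2. For members that fell they were -1.65 and -1.55 for Adamts3, -1.23 and -1.53 for Mmp16, -1.06 and -1.24 for Adamts6 and -0.66 and -0.87 for Adamts4. In the adjusted fit the same pairs were 3.17 and 3.36 for Mmp19, 1.48 and 1.58 for Mmp28, 1.15 and 1.04 for Mmp2, 1.76 and 1.77 for Timp3 and 0.57 and 0.52 for Timp2. There they were -1.86 and -1.77 for Adamts3, -0.48 and -0.53 for Mmp16, -0.42 and -0.39 for Adamts6 and -1.08 and -1.43 for Adamts4.

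Calls differed between these comparisons for 4 members. Mmp9 was called higher with oxybutynin (log2 0.80 ± 0.33, adjusted p = 0.0397), a call lost in 3 of 6 fits that left out 1 library and in the adjusted fit (0.20). Mmp12 was not called there (0.82, adjusted p = 0.13), but it was in the adjusted fit (1.94, adjusted p = 0.00275). Adamts10 was not called (-0.11, adjusted p = 0.30), and the adjusted fit called it lower (-0.61, adjusted p = 6.26e-06). Adamts12 was called lower (-0.36 ± 0.15, adjusted p = 0.0354), lost in 5 of 6 such fits, and the adjusted fit gave 0.11. Calls in knockout oxybutynin against floxed vehicle also changed in the adjusted fit for Adamts14 (0.76, then 0.10 and not called), Adamts5 (0.12, then 0.99 and called higher) and Mmp14 (0.19, then -0.27 and called lower). The MMP, ADAMTS and TIMP sums in knockout oxybutynin were 91.4 ± 2.95, 151 ± 3.57 and 499.6 ± 11.3 CPM per kb (SD, n = 3).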

How the data were processed

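The authors deposited raw counts for each gene in 9 libraries, prepared from Trizol RNA with a directional NEBNext kit per the labels' protocols. Per the submitters' processing notes, the tools included STAR 2.7.0e, Trim Galore 0.6.0 with cutadapt, and DESeq2 1.26.0, and the builds were GRCm38 and mm10. How counts were made, with which annotation and strand setting: not given in the sources used here. Gene IDs matched GENCODE M21 (55536 of 55536), which gave names, positions, exon lengths and GC content.

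These counts went without change into edgeR 4.0.16 (R 4.3.3): filterByExpr, TMM scaling, glmQLFit and glmQLFTest on all libraries with 1 mean per group, and Benjamini-Hochberg adjustment over the 15720 genes kept. Only member rows are reported. The SE is the log2 fold change divided by the square root of the F statistic. CPM per kb divides CPM by the union of exons. Alternatives were DESeq2 1.42.0, other scalings and filters, stricter thresholds, a fit of only the groups compared, removal of each library's GC and length trend (spline, 4 degrees of freedom), and leaving out each library. The procedure was tested on simulated data. No pair of replicates differed by less than sampling noise (chi-square per degree of freedom 2.05 to 52.0). The text names every tested member and untested members by their counts. From each list it names some called genes and well-known ones, which are not always those with the lowest adjusted p. Some items are not reported here. Members and lists were chosen with earlier results of these data known.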

Additional observations from a re-analysis of the deposited data

How the results depend on the processing

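No paired analysis was possible because the library numbers in the labels run on from group to group and no number is shared. In knockout vehicle against floxed vehicle, members called higher numbered 9 to 14 and members called lower 4 to 8 over the alternatives. These fits tested between 23 and 41 members, against 26 in the main fit, so the counts are not of like sets. Shares of all genes called were computed for only some of them, as given above. The lowest count of lower calls, 4 against 7, came with a change of at least 1.5-fold. The same threshold left 4 lower members in knockout oxybutynin against floxed vehicle. In knockout oxybutynin against knockout vehicle, leaving out 1 library gave 0 to 5 higher and 0 to 2 lower members. DESeq2, which gave no adjusted p for some members, gave 1 lower. Removal of the GC and length trend turned the sign of 3 values called in at least 1 of the 2 fits: Mmp14 became -0.18 with knockout and -0.27 with knockout and oxybutynin against floxed vehicle, and Adamts12 became 0.11 in the last comparison. It also turned values called in neither fit, 1 and 3 in these comparisons and 8 in knockout oxybutynin against knockout vehicle. The cause was not tested. Depth limits Mmp12, Adamts3, Mmp17 and Mmp9 and the 19 untested members.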
